A study of Mus musculus with 4 samples.

Results

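Cadherins and protocadherins are the calcium-dependent adhesion molecules of the cadherin superfamily, and 92 of the 49492 gene rows of the testis count table belong to them by symbol, either Cdh followed by a number or any symbol that begins with Pcdh. They comprise 18 classical cadherins (5 of type I and 13 of type II), 5 other numbered cadherins, 12 non-clustered protocadherins and 57 clustered protocadherins (13 alpha, 22 beta and 22 gamma). RNA from whole testes of male C57BL/6J mice was sequenced in 4 libraries, and all 4 are labelled as treated with LPS, a bacterial endotoxin. By the labels, 2 libraries carry a short hairpin against Spry1 (genotype Spry1 knockdown) and 2 a control hairpin (genotype WT). The age of the mice, the dose and time of LPS, the way the hairpin was delivered, the cells it reached and whether each library is a separate animal could not be taken from the labels, so each p-value measures only how these samples spread, and that spread may be technical.

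The columns of counts carry the headings LPS and NC, which are not the sample titles. Here NC was taken to mean the control hairpin, and LPS the Spry1 hairpin. If the headings stand for LPS against no LPS, every difference below belongs to that contrast instead, so the groups go by their headings, as LPS columns and NC columns. Log2 fold changes above 0 mean a higher level in the LPS columns.

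Classical cadherins hold neighbouring cells together by binding the same or a related cadherin on the next cell, while their cytoplasmic tail binds beta-catenin and p120-catenin and, through alpha-catenin, the actin cytoskeleton. In the testis, N-cadherin (Cdh2) is the main cadherin of the junctions between Sertoli cells and between Sertoli and germ cells, E-cadherin (Cdh1) marks undifferentiated spermatogonia, and VE-cadherin (Cdh5) belongs to endothelial cells. Protocadherins lack the catenin-binding tail. The non-clustered ones are separate genes, while in the alpha and gamma clusters each variable exon has its own promoter and is spliced to constant exons that the whole cluster uses, and beta genes have a single large exon with no constant exons.

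Libraries held 17612342 to 22451132 counts and 29393 to 30606 genes with a count. Of 20855 genes that passed the filter on low counts, edgeR's quasi-likelihood test called 31.5% at a Benjamini-Hochberg adjusted p under 0.05, with 15.2% higher and 16.3% lower in the LPS columns. With library size as the only scaling, 62.0% of the calls were higher, against 48.3% with TMM scaling. Spry1 had 26 and 17 counts in the LPS columns against 45 and 41 in the NC columns, a log2 fold change of -0.82 ± 0.28 (SE; adjusted p = 0.0212), and DESeq2 did not call it (adjusted p = 0.249). The counts are bulk values, so fewer cells of a type and less RNA per cell cannot be told apart. Markers of other cell types moved as well. Summed over the Sertoli list they were 550 and 520 CPM (counts scaled to TMM-adjusted library size) in the LPS columns against 404 and 415 in the NC columns. Over the elongating spermatid list they were 17528 and 17188 against 24172 and 23334, with 0 of 9 called higher, 6 lower and 3 not called. Prm2 held the largest part of that sum, with means of 6503 CPM in the LPS columns and 10485 CPM in the NC columns. The Leydig cell list was lower, at 483 and 559 against 887 and 930 CPM, with 2 of 9 called higher and 5 lower, and the macrophage list higher, at 107 and 118 against 71.5 and 79.0 CPM, with 6 of 10 called higher and 3 lower.

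Of the 92 members, 65 passed the filter and 27 did not, and 9 were called, 4 higher and 5 lower. All 9 lay among the 35 members outside the clusters, of which 25 were tested. Of those 25, 36% were called, beside 31.5% of all genes tested. Over all 65 the share was 13.8%, but 35 of them are alpha or gamma rows that share exons. The libraries of the groups did not overlap for 20 of the 65 tested members, beside 64.1% of all genes tested. Outside the clusters this held for 16 of the 25.

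Of the classical cadherins, 14 of 18 were tested, 3 rose, 3 fell and 8 were not called. That is 42.9% called, beside 31.5% of all genes, and the median log2 fold change was 0.06, beside 0.00 over all genes. The libraries did not overlap for 9 of the 14, a share near the 64.1% over all genes.

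Cdh2 (N-cadherin, type I, chr18:16588877-16809246 of mm10, minus strand) had 1664 and 1606 counts in the LPS columns against 1082 and 1015 in the NC columns. Scaled, these were 84.4 and 89.9 CPM against 49.2 and 49.5 CPM. Both LPS libraries were far above both NC libraries, and the replicates lay close together. The means were 87.2 ± 3.90 and 49.3 ± 0.21 CPM (SD, n = 2 per group), a log2 fold change of 0.82 ± 0.06 (SE) or 1.77-fold, with an adjusted p of 5.27e-13 by edgeR's quasi-likelihood test.

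Outside the alpha and gamma clusters, whose rows share counts, Cdh2 was also the most abundant member per length, at 8.46 RPKM (reads scaled for gene length and library size, mean of 4 libraries), before Pcdh1 at 1.93 RPKM. Its part of the summed RPKM of the classical cadherins was 63.3% and 63.5% in the LPS columns and 49.3% and 49.9% in the NC columns. Per length, it stood 51.1 to 91.1 times above Cdh1 across the libraries. The summed Sertoli markers above rose in the same direction as Cdh2, with 6 of 12 called higher, 2 lower and 4 not called. Ctsl held the largest part of that sum, with means of 301 CPM in the LPS columns and 207 CPM in the NC columns. The part of the Sertoli markers in the difference of Cdh2 was not tested.

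The other type I cadherins were low. Cdh1 (E-cadherin) had 13 and 10 counts in the LPS columns against 12 and 9 in the NC columns, and its log2 fold change of 0.31 ± 0.43 (SE) had an interval from -0.58 to 1.19 (95%). Cdh3 (P-cadherin), with 57 and 53 counts against 61 and 49, had 0.18 ± 0.21. Neither was called, and at these counts a difference of the size seen in Cdh2 lies within the interval for Cdh1. Cdh4 (R-cadherin), with 10 to 12 counts in a library, was not called either, and Cdh15 (M-cadherin, of skeletal muscle) was below the filter.

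Among the type II cadherins, Cdh5 (VE-cadherin, the adhesion molecule of endothelial junctions) had 87 and 110 counts in the LPS columns against 77 and 57 in the NC columns. In CPM these were 4.41 and 6.16 against 3.50 and 2.78. The groups did not overlap, but LPS replicate 1 lay nearer to NC replicate 1 than to LPS replicate 2. The log2 fold change was 0.74 ± 0.19 (SE; edgeR adjusted p = 0.00243), and it fell to 0.49 without LPS replicate 2 (adjusted p = 0.0943) while DESeq2 gave an adjusted p of 0.0677. The 9 tested genes of the endothelial list did not move together. Of them, 3 rose, 1 fell and 5 were not called, the angiopoietin receptor Tek had 1.04 ± 0.23 and the clotting factor Vwf -0.45 ± 0.12, and the summed level was 27.8 and 31.2 CPM against 32.3 and 25.1 CPM.

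Cdh11 (OB-cadherin, a cadherin of mesenchymal cells) was lower, with 64 and 52 counts in the LPS columns against 138 and 103 in the NC columns. At 3.25 and 2.91 CPM, both LPS libraries lay below the NC libraries at 6.27 and 5.02 CPM. The log2 fold change was -0.87 ± 0.18 (SE; edgeR adjusted p = 0.000218).

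Cdh6 (K-cadherin, known from the kidney and the nervous system) had 20 and 28 counts in the LPS columns against 45 and 54 in the NC columns. The groups did not overlap, and the log2 fold change was -0.86 ± 0.27 (SE; edgeR adjusted p = 0.0128). The call was lost with DESeq2 (adjusted p = 0.196), in the fit without LPS replicate 1, where the change was -0.57 (adjusted p = 0.185), and in that without NC replicate 2, where it was -0.67 (0.141). Its adjusted p over all alternatives ran from 0.00443 to 0.196.

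Cdh19 (a cadherin of Schwann cell precursors, chr1:110888326-110977584, minus strand) had no count in either LPS library, against 26 and 22 counts in the NC columns, or 1.18 and 1.07 CPM. It was the only one of the 65 tested members listed at 0 in every library of one group. With 3 counts over the LPS columns as the floor, the level there was at least 14.1-fold lower, and edgeR's adjusted p was 1.48e-07. Among the 11 tested genes of the Schwann cell and neuron list, 3 fell and 8 were not called, and the summed level was 69.8 and 71.1 CPM in the LPS columns against 115 and 116 in the NC columns. That difference lay in Erbb3 and Ngfr, since the other genes of the list summed to 33.7 and 35.9 CPM against 34.8 and 34.7 CPM. Erbb3, the neuregulin receptor of Schwann cells, had 18 and 19 counts against 590 and 510, a log2 fold change of -4.71 ± 0.16. The neurotrophin receptor Ngfr, named after its values were seen, had 694 and 610 against 1183 and 1161, or -0.67 ± 0.07. The Schwann cell transcription factor Sox10, with 25 and 37 counts against 43 and 36, had -0.17 ± 0.27. The part of these cells in the difference of Cdh19 was not tested.

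Cdh20, a type II cadherin of the developing nervous system, is the 1 called member outside the naming rule and is named after its values were seen. It had 61 and 50 counts in the LPS columns against 37 and 37 in the NC columns, and a log2 fold change of 0.76 ± 0.23 (SE; edgeR adjusted p = 0.00918). DESeq2 (adjusted p = 0.172) and the fits without LPS replicate 1 (0.0643) and without NC replicate 1 (0.0562) did not call it.

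The most abundant type II cadherin per length was Cdh12 (brain cadherin) at 1.30 RPKM. It had 163 and 121 counts in the LPS columns against 149 and 156 in the NC columns, so the libraries overlapped, and its log2 fold change of 0.07 ± 0.14 was not called. Cdh9, Cdh18, Cdh22 and Cdh24 were tested and not called, with log2 fold changes from -0.47 to 0.47, and Cdh7, Cdh8 and Cdh10 were below the filter. Of the type II cadherins, 2 thus rose, 3 fell and 5 of the tested 10 were not called.

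**Figure D1:**
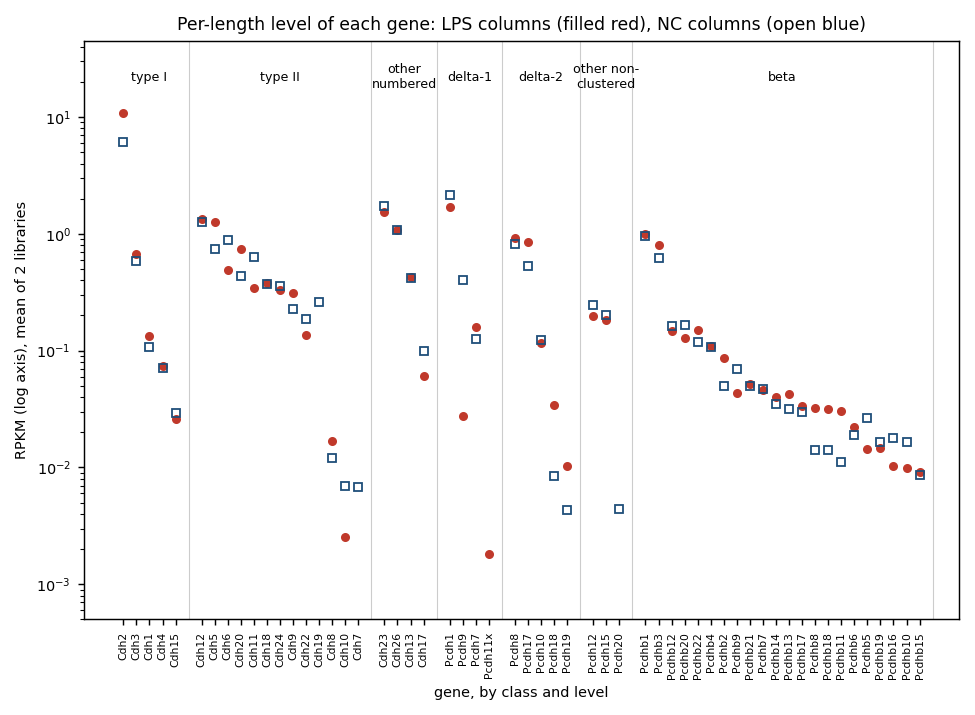
Mean RPKM of each gene on a log axis, for the LPS columns (filled red circles) and the NC columns (open blue squares), with genes ordered by class and level; points at 0 and the alpha and gamma rows, whose counts are shared, are not drawn. Cdh2 is the highest, and Cdh19, Cdh7 and Pcdh20 have a point for the NC columns only.

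**Figure D2:**
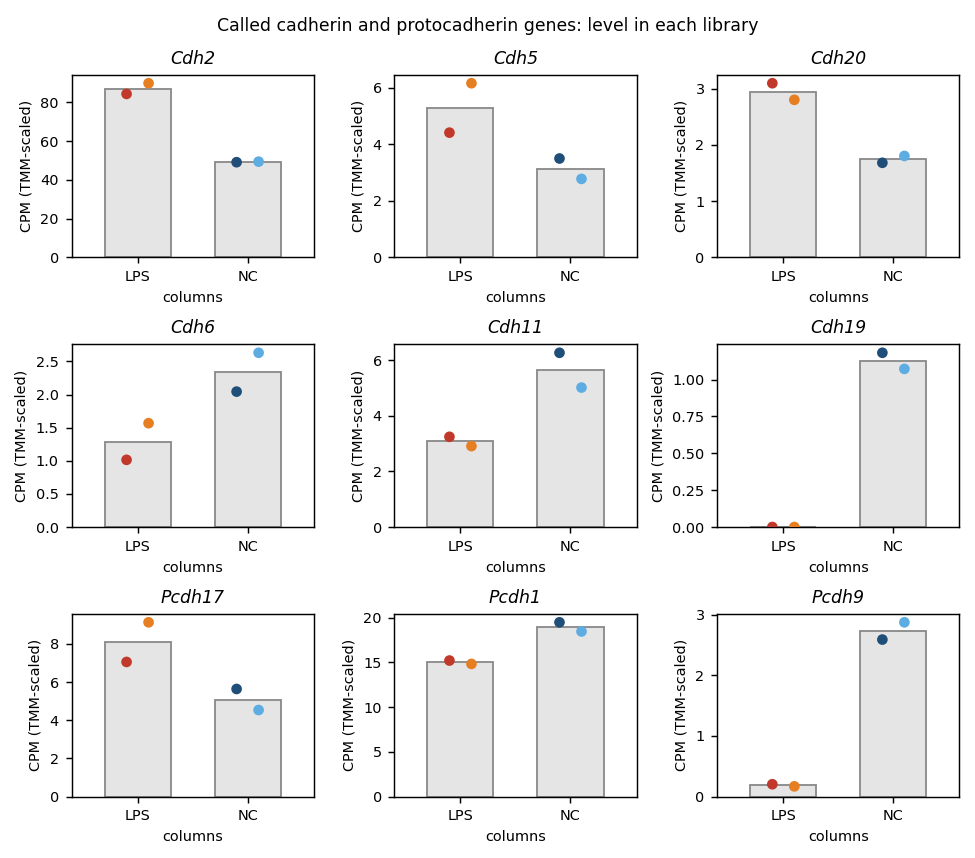
CPM in each library for the 9 called members, 1 panel per gene, with points for the replicates and grey bars for their means. In every panel both libraries of one group lie apart from both of the other, and for Cdh19 both LPS libraries are at 0.

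None of the 3 tested numbered cadherins outside the classical classes was called, and none had an unadjusted p under 0.05 in the main edgeR fit or DESeq2. In the edgeR fit with the replicate number as a block, 1 of them did. Cdh23, a long cadherin of the hair cell tip link, had 510 and 473 counts in the LPS columns against 685 and 565 in the NC columns. Both LPS libraries, at 25.9 and 26.5 CPM, lay below both NC libraries at 31.1 and 27.5 CPM, and the log2 fold change of -0.17 ± 0.08 (SE) had an interval from -0.33 to 0.00 (95%). Cdh13 (T-cadherin, which is anchored to the membrane by a lipid and binds adiponectin) had 96 and 86 counts against 93 and 105, and 0.06 ± 0.17. Cdh26, at 1.09 RPKM, had 0.00 ± 0.19. Cdh16, of kidney epithelium, had no counts in any library, and Cdh17, of intestinal epithelium, had 4 and 6 against 9 and 10.

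Of the 12 non-clustered protocadherins, 8 were tested, 1 rose, 2 fell and 5 were not called. The share called was 37.5%, beside 31.5% of all genes, and the libraries of the groups did not overlap for 6 of the 8, beside 64.1%. The median log2 fold change was -0.11.

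Pcdh9, a delta-1 protocadherin known mainly from neurons (chr14:93013410-93890679, minus strand), had 4 and 3 counts in the LPS columns against 57 and 59 in the NC columns. At 0.203 and 0.168 CPM against 2.59 and 2.88 CPM, both NC libraries lay far above both LPS libraries. The log2 fold change was -3.83 ± 0.39 (SE; edgeR adjusted p = 5.50e-10), which leaves 0.0704 of the NC level. Apart from Cdh19, where the change is a bound, this was the largest change among the tested members. Of all genes tested, 5.91% were called with a log2 change of 1 or more in size, and among the members these were Pcdh9 and Cdh19.

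Pcdh1, also of the delta-1 class and known from airway epithelium, was the most abundant non-clustered protocadherin per length. It had 300 and 265 counts in the LPS columns against 429 and 379 in the NC columns, or 15.2 and 14.8 CPM against 19.5 and 18.5 CPM. The groups did not overlap, and the log2 fold change was -0.34 ± 0.10 (SE; edgeR adjusted p = 0.00648). The call was lost without NC replicate 1 (adjusted p = 0.0757) and with DESeq2 (adjusted p = 0.0997).

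Pcdh7, the remaining tested delta-1 gene, had 34 and 30 counts in the LPS columns against 29 and 28 in the NC columns and was not called (0.34 ± 0.27). Its exons overlap the gene 4932441J04Rik on the opposite strand, and without the strand setting of the counting the reads of these genes cannot be told apart. Pcdh11x was below the filter.

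Among the delta-2 protocadherins, whose tails can bind the WAVE actin regulator, Pcdh17 was higher. It had 139 and 163 counts in the LPS columns against 124 and 93 in the NC columns, or 7.05 and 9.13 CPM against 5.63 and 4.53 CPM. Both LPS libraries were above both NC libraries, with a log2 fold change of 0.66 ± 0.15 (SE; edgeR adjusted p = 0.000932). Pcdh8 (0.15 ± 0.18) and Pcdh10 (-0.09 ± 0.25) were not called, and Pcdh18 and Pcdh19 were below the filter. Of the other non-clustered genes, Pcdh12 (an endothelial protocadherin) had 22 and 23 counts against 36 and 28 and -0.33 ± 0.29. Pcdh15, the tip link partner of Cdh23, had -0.14 ± 0.17, and Pcdh20 had a single count in all 4 libraries together.

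**Figure D3:**
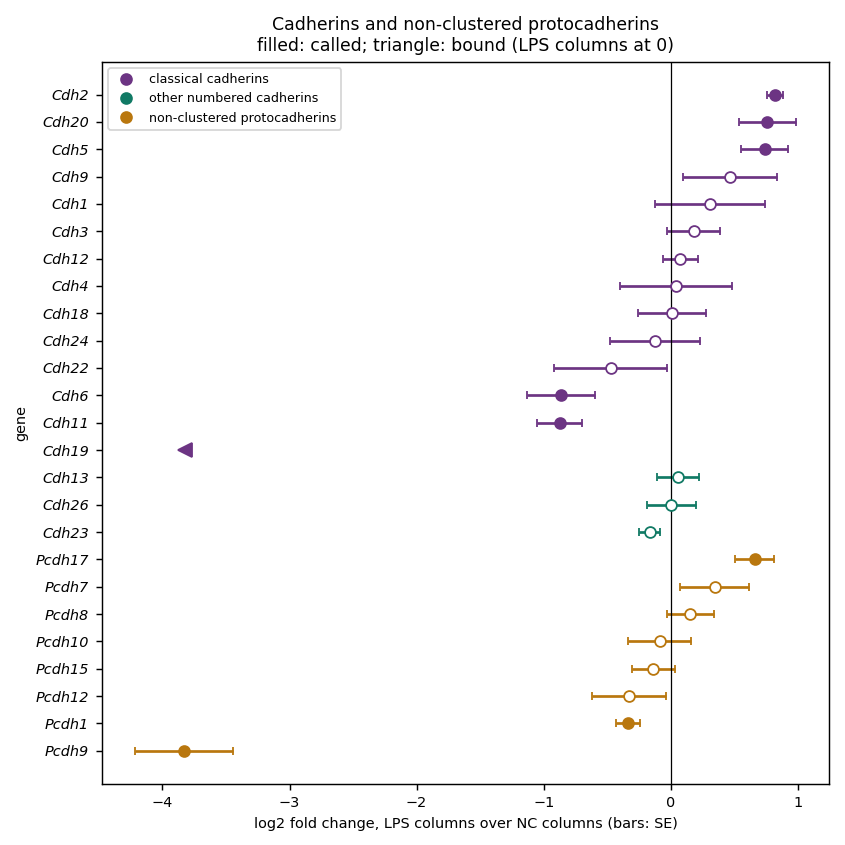
Log2 fold change (LPS columns over NC columns) with its SE for the 25 tested members outside the clusters, filled where called, and coloured by class, with a triangle for Cdh19 at the bound against the floor of 3 counts. Pcdh9 and Cdh19 lie far to the left of the rest.

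Of the 9 called members, 5 were called under all 11 alternatives, namely Cdh2 (0.78 to 0.88), Cdh11 (-1.02 to -0.69), Cdh19, Pcdh9 (-3.97 to -3.70) and Pcdh17 (0.47 to 0.84). Fits that leave out a library take the spread of the lone sample from the other group and from other genes.

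Promoter sequences show whether called members share letters near their starts. RefSeq windows (GRCm38.p6, from 250 bases before to 50 after the start) were matched for 22 members and 4 called ones, here with CpG dinucleotides in capitals and written 5′ to 3′ on the strand of the gene. They stand at chr1:104768270-104768569 (plus strand) for Cdh20, chr14:84443313-84443612 (plus) for Pcdh17, chr14:93890630-93890929 (minus) for Pcdh9 and chr15:13173626-13173925 (minus) for Cdh6.
Cdh20: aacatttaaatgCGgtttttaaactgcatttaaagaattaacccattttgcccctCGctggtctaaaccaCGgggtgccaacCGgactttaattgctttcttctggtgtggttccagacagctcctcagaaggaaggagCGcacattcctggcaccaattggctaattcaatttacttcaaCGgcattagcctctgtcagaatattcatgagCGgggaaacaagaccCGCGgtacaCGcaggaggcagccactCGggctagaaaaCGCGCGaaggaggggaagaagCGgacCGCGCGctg
Pcdh17: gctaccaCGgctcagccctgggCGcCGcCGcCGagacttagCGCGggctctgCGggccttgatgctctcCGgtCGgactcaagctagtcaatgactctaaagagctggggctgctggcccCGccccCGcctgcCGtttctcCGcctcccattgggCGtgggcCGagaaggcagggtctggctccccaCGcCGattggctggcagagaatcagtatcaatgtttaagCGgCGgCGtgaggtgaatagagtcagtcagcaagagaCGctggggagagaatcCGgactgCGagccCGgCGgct
Pcdh9: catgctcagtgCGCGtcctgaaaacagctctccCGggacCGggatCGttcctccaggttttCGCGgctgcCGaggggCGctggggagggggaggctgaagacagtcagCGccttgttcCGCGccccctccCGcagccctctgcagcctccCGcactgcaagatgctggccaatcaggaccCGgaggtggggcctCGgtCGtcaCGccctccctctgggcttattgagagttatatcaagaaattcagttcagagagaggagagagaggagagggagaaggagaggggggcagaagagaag
Cdh6: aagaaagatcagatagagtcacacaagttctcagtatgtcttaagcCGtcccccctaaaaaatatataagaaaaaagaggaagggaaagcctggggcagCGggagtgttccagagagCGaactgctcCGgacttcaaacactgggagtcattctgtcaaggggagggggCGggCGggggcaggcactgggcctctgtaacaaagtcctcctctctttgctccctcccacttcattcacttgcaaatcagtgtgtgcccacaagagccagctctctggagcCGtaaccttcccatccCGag
The 2 that rose held 18 (Cdh20) and 26 (Pcdh17) CpGs and the 2 that fell 18 (Pcdh9) and 8 (Cdh6), beside a median of 7 over 32841 windows. A further Pcdh9 window, which overlaps the one printed, held 19. These 4 genes are too few to show or exclude a link between CpG number and direction. GC content was 50.7% for Cdh20, 65% for Pcdh17, 62.7% for Pcdh9 and 53.0% for Cdh6, against a median of 52.7%. On both strands, none of the 4 windows held the E-box CACCTG (in 20.2% of windows), the AP-1 site TGANTCA (7.81%), TATAAA (13.6%) or the NF-kB motif (8.46%), which says only that these letters are not in these windows.

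The clustered protocadherins gave 57 rows, of which 40 passed the filter. By edgeR none was called, beside 31.5% of all genes tested. Of these rows, 1 had an unadjusted p under 0.05, and their median log2 fold change was 0.02. DESeq2 and limma-voom called none. The libraries did not overlap for 4 of the 40, beside 64.1% of all genes tested. However, 35 of the 40 are alpha or gamma rows that share exons, so these figures do not count separate genes.

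The alpha and gamma rows are not separate measurements. All 13 alpha rows contain the same 2860 exon bases and all 22 gamma rows the same 2116, and their counts were nearly equal. The lowest alpha row had 281, 268, 251 and 304 counts (LPS replicates 1 and 2, then NC replicates 1 and 2), and 10 of 13 alpha rows lay within 10% of the lowest in every library. The lowest gamma row had 649, 544, 728 and 617, and 18 of 22 gamma rows lay within 10%. The sources used here do not say how the counting treated a read over several genes. The gene models Gm42416, Gm37013, Gm37388 and Gm38182 also overlap the gamma constant exons on the same strand. The log2 fold changes were accordingly narrow, from 0.14 to 0.21 over the alpha rows and from -0.00 to 0.07 over the gamma rows.

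**Figure D4:**
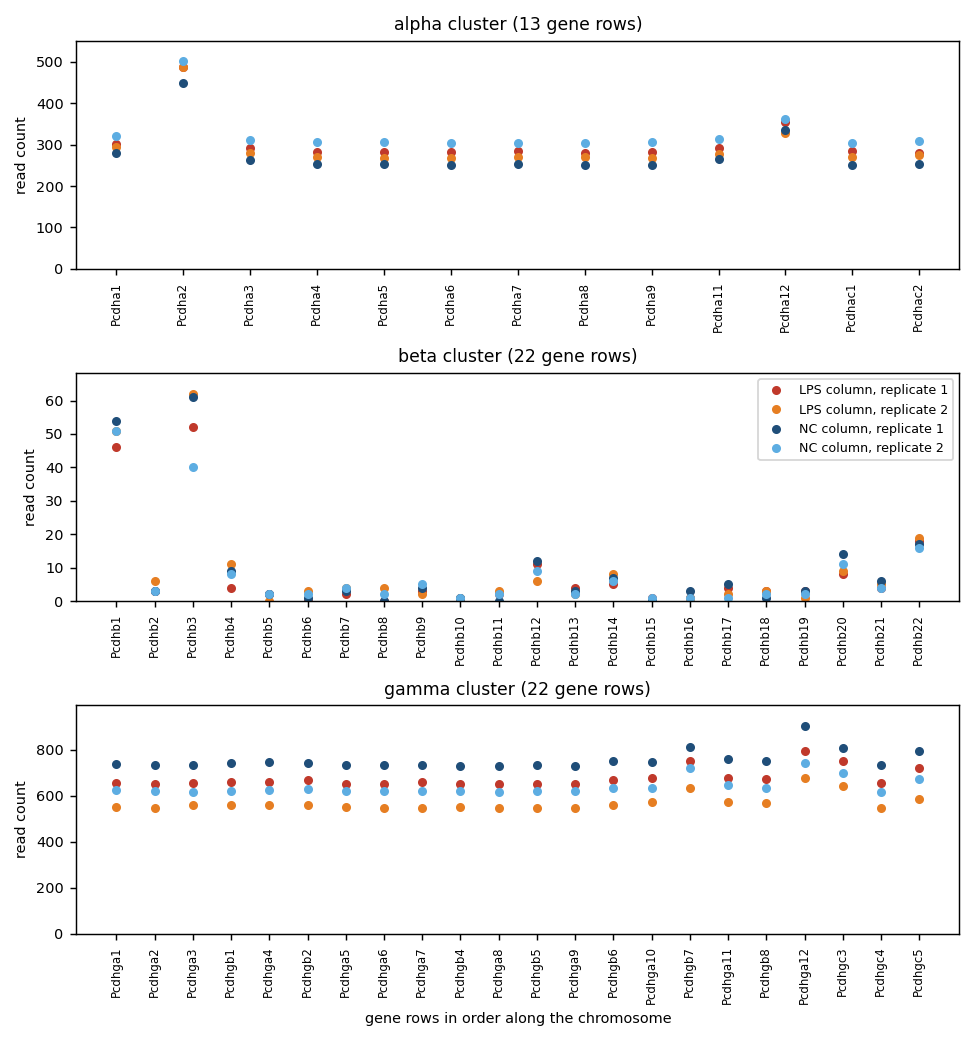
Read count of each alpha, beta and gamma row in each library, 1 panel per cluster. Alpha and gamma rows lie at nearly the same height with a few above, such as Pcdha2 and Pcdhga12, whereas beta rows have separate and low values.

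Counts above the lowest row of a cluster are those the constant exons cannot hold, less any reads of the lowest row's own exon. In the alpha cluster, Pcdha2 had 206 and 219 such counts in the LPS columns against 199 and 197 in the NC columns, which is 61.8% of the alpha excess. Pcdha12 had 73 and 59 against 85 and 59 (20.8%), and Pcdha1 21 and 27 against 30 and 18 (7.22%). In these testes the alpha variable exons were thus led by Pcdha2 in both groups.

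In the gamma cluster the excess was spread more widely. Pcdhga12 had 146 and 132 counts above the lowest row in the LPS columns and 174 and 125 in the NC columns (25.9% of the gamma excess). Pcdhgb7 had 102 and 90 against 82 and 103 (16.9%), so its libraries overlapped. The C-type gene Pcdhgc3 had 101 and 99 against 79 and 83 (16.2%), with both LPS libraries higher, and Pcdhgc5 had 69 and 42 against 67 and 54 (10.4%). This order depends on the length used. Per kilobase of exon not shared with other rows, the excess over all libraries was 207 for Pcdhgb7, 199 for Pcdhgc3 and 140 for Pcdhga12. It was 90.8 for Pcdhga11 and 50.4 for Pcdhgc5. The excess can hold reads over variable-exon bases that other gene models overlap, but these lengths leave such bases out. That can raise the values of Pcdhga11 (1256 unshared bases), Pcdhgc3 (1821) and Pcdhgb7 (1823) more than that of Pcdhga12 (4123). The order per kilobase is therefore not settled. Pcdhga12 and Pcdhgb7 also overlap the gene model Gm26672 on the opposite strand.

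**Figure D5:**
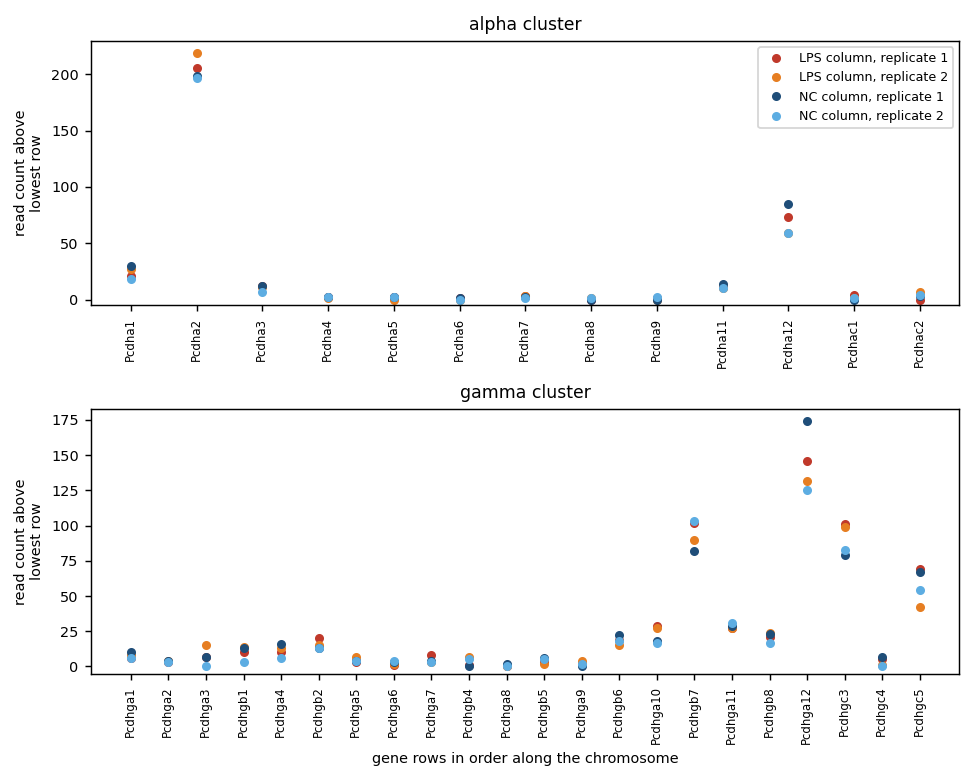
Counts above the lowest row of the cluster in each library, for every alpha and gamma row, with 1 point per library. Pcdha2 leads the alpha cluster in all 4 libraries, while several gamma rows share the excess.

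A fit in which the counts shared by a cluster entered once, chosen after seeing the data, called 2 gamma genes higher by edgeR. Pcdhgc3 had a log2 fold change of 0.49 ± 0.17 (SE; adjusted p = 0.0249), but 3678 of its 5499 exon bases are shared with other rows, among them BC037039 on the opposite strand. Pcdhga10, with 29 and 27 counts above the lowest row against 18 and 17, had 0.86 ± 0.31 (adjusted p = 0.0349), but all its exon bases are shared with other rows. Pcdha2 had 0.29 ± 0.12 (adjusted p = 0.0636). The shared counts themselves were not called, at 0.17 ± 0.11 for alpha (interval from -0.06 to 0.39) and 0.01 ± 0.08 for gamma (from -0.15 to 0.17).

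The changes of the alpha rows depended on which NC library was left out. Without NC replicate 2, 11 of 13 alpha rows were called higher by edgeR, with log2 fold changes from 0.25 to 0.37, and without NC replicate 1 they ran from -0.02 to 0.10. Because the rows share their counts, this is nearer to 1 observation than to 11.

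The beta rows share no exon base across the whole cluster (Pcdhb21 and Pcdhb22 have 455 in common), so their counts are mostly separate. Pcdhb12 overlaps a gene model on the opposite strand. Of 22, 5 were tested and none was called, with log2 fold changes from -0.37 to 0.36. The other 17 had at most 32 counts over the 4 libraries. Pcdhb1 had 46 and 51 counts in the LPS columns against 54 and 51 in the NC columns, and Pcdhb3 had 52 and 62 against 61 and 40. Together these held 55.7% and 55.7% of the beta counts in the LPS columns and 55.0% and 52.0% in the NC columns. Summed over each cluster, the ratio of the LPS to the NC columns was 1.12 ± 0.19 for alpha, 1.13 ± 0.21 for beta and 1.01 ± 0.09 for gamma, where ± is the SD implied by the replicates. For alpha and gamma the shared counts enter this sum once per row, so their ratios mostly repeat that of the shared counts. A test of 2 against 2 libraries cannot go below an exact two-sided permutation p of 0.333.

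The genes that work with cadherins were counted by role. Of 14 tested catenins and linkers to actin, 8 rose, 1 fell and 5 were not called. That is 64.3% called and 57.1% higher, beside 31.5% and 15.2% of all genes tested. Beta-catenin (Ctnnb1, 0.19 ± 0.06), alpha-catenin (Ctnna1, 0.27 ± 0.07), p120-catenin (Ctnnd1, 0.32 ± 0.07) and plakoglobin (Jup, 0.24 ± 0.08) were each called higher, with log2 fold changes under that of Cdh2. The largest was Plekha7, which links p120-catenin to microtubules (0.82 ± 0.11), and the 1 that fell was the testis and heart alpha-catenin Ctnna3 (-0.23 ± 0.06). The list had a median of 0.21, beside 0.00 over all genes.

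Of 14 genes for cleavage and turnover, 3 rose, 1 fell and 10 were not called, a share called of 28.6% that lies near the 31.5% over all genes. The sheddase Adam10, which cleaves N-cadherin, had 0.45 ± 0.10, and Adam15 had -0.57 ± 0.11. Among 9 transcriptional repressors of cadherins, Zeb2 rose (0.57 ± 0.08), Snai2 fell (-0.66 ± 0.14) and 7 were not called, a share called of 22.2%. Of 20 genes listed for promoter choice in the clusters (CTCF, cohesin, DNA methylation and related chromatin genes), 11 rose, 2 fell and 7 were not called. The list is broad and includes meiotic cohesin forms, and the role of each gene in promoter choice was not tested. That is 65% called and 55% higher, beside 31.5% and 15.2% of all genes tested. Ctcf itself was not called (-0.06 ± 0.08), Rad21l, the meiotic cohesin subunit, rose by 0.98 ± 0.20, and Smc3 had -0.21 ± 0.05.

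Of 16 genes of protocadherin signalling, 2 rose, 2 fell and the other 12 were not called. That is 25% called, below the 31.5% of all genes tested. The called genes with the largest change each way were Cyfip1 of the WAVE complex at 0.43 ± 0.12 and Nckap1l, a WAVE subunit of blood cells, at -0.38 ± 0.10. In the wider cadherin superfamily, 2 of 18 rose and 3 fell, which leaves 13 not called. The share called there was 27.8%, also below that over all genes. Among the called ones, the calsyntenins changed most in each direction, with Clstn1 at 0.52 ± 0.08 and Clstn3 at -0.95 ± 0.23. All of these values are log2 fold changes ± SE from the same edgeR fit.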

How the data were processed

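RNA sequencing counts were analysed for 4 libraries of mouse testis in 2 groups of 2. The authors deposited raw counts of reads for each gene, in a table that, per the file headers, carries the exon positions, strand and length written by featureCounts. The submitters' processing notes list STAR 2.5.3a, Subread 1.5.1 with featureCounts, Trimmomatic 0.36, DESeq, edgeR 3.12.1 and the build mm10, with no roles. Strand setting and annotation release: not given in the sources used here. GENCODE release M21 gave coordinates for 86 of 92 members.

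Counts of all genes were filtered (filterByExpr), scaled by TMM factors and tested with edgeR 4.0.16 (R 4.3.3) by quasi-likelihood with Benjamini-Hochberg adjustment over all genes tested. Residual degrees of freedom were 2, beside 34 prior ones. SEs are those implied by the F statistic. RPKM used the deposited lengths. Alternatives were DESeq2 1.42.0, limma-voom (limma 3.58.1), other scalings, no filter, the replicate number as a block and leaving out each library. A count of 3 served as the floor for 0, for counting error only.

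Members and lists were chosen with earlier results of these data known. Named were called members with a log2 change of 1 or more in either direction, the 3 with the highest level in each class and 10 set cadherins. In each other list, the called gene with the largest change in each direction was named, plus Ctnnb1, Ctnna1, Ctnnd1, Jup and Ctcf. Same-numbered replicates did not deviate together (r = 0.0155 across 20855 genes, which are not independent replicates), and the main fit did not pair them. With 1 difference between replicates in each group, this cannot exclude a pairing. Replicates differed by more than sampling noise (chi-square per degree of freedom 2.42 and 2.33).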

Additional observations from a re-analysis of the deposited data

How the results depend on the processing

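Genes called numbered 6563, and 3299 with DESeq2. The classical cadherins called numbered 6, and 3 with DESeq2. The clustered protocadherins called numbered 0, but 1 with library size as the only scaling, 1 with the replicate block (where 6970 genes were called), 2 with shared counts taken once and 0 to 11 when a library was left out. The cause was not tested, except that the 11 are rows with shared exons. The log2 fold change of Spry1 was -0.83 with DESeq2 and -1.08 to -0.61 when a library was left out, with the call lost without LPS replicate 2, NC replicate 1 or NC replicate 2.

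Uncalled members changed sign when a library was left out, and their ranges were -0.082 to 0.21 for Cdh12, -0.072 to 0.20 for Cdh13, -0.053 to 0.065 for Cdh26, -0.014 to 0.36 for Pcdh8, -0.28 to 0.076 for Pcdh10, -0.079 to 0.21 for Pcdhb1, -0.55 to 0.18 for Pcdhb12, -0.051 to 0.077 for Pcdhga11, -0.018 to 0.085 for Pcdhgb7 and -0.050 to 0.099 for Pcdhgb8. Pcdha2, not called in the reported fit, was called with library size only (0.28), the block (0.22) and without LPS replicate 1 or NC replicate 2. Of 313 values of single genes under the alternatives, 284 kept their direction and side of the threshold, 15 changed sign, 10 lost a call and 4 gained one. Depth limits Cdh1, Cdh4 and most beta genes, whose counts allow wide intervals.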
